A study of Mus musculus with 13 samples.

Results

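The genes described are 8 members of the Nlrp family that mouse oocytes are known to express: Nlrp4a, Nlrp4b, Nlrp4c, Nlrp4e, Nlrp9a, Nlrp9b, Nlrp9c and Nlrp14. They were chosen by symbol, and all 8 were found among the 23235 gene symbols of the table. The study measured polyadenylated RNA in nuclei and cytoplasms that had been pulled apart by micromanipulation from wild-type (WT) mouse oocytes and from oocytes that lack MTR4, the RNA helicase that hands nuclear RNA to the exosome for degradation. The labels give 13 libraries, each made with the low-input Smart-seq2 method from 10 nuclei or 10 cytoplasms. WT nuclei have 2 libraries at day 14 and 3 at day 21, WT cytoplasms have 2 at each day, and MTR4-null nuclei and cytoplasms have 2 each, at day 21. The table holds 4 columns, 1 for each genotype and compartment. No column stands for a single library, so no value below has a replicate, a standard deviation or a test. The WT columns name no day, so genotype and age cannot be told apart. The strain, and how Mtr4 was deleted, are not given in the sources used here.

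NLRP proteins are built from a pyrin domain, a nucleotide-binding NACHT domain and a tail of leucine-rich repeats. Some members, such as NLRP3, assemble inflammasomes in immune cells. A second branch is made mainly by germ cells, and in the mouse it has grown by gene duplication into the Nlrp4 and Nlrp9 groups. Of this branch, NLRP5, also called MATER, belongs to the subcortical maternal complex, a protein assembly beneath the egg membrane that the early embryo needs, and NLRP2 and NLRP4F are tied to it. NLRP14 is known as a maternal factor that early embryos need. NLRP9B is known outside the ovary for sensing viral RNA, together with the helicase DHX9, in the gut lining.

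Near-identical copies can share reads, so the transcripts were compared first. In GENCODE M21 each member's longest protein-coding transcript was cut into every stretch of 50 bases, and each stretch was looked for in the transcripts of all other genes. For Nlrp14 and Nlrp4b 100% of the stretches were found in no other gene. The share was 97.0% for Nlrp4a, 95.0% for Nlrp9c, 93.8% for Nlrp9b, 93.5% for Nlrp9a and 88.1% for Nlrp4c. It was lowest for Nlrp4e, at 63.1%. Nlrp4e shared 1033 of its 1229 other stretches with the annotated gene Gm16443, and the genes listed next were Gm8486 and Gm8685. Of the 28 pairs of members, 6 shared at least 1 such stretch, and the most alike were Nlrp4c and Nlrp4e, with 93.2% identity over 3366 aligned bases. The Nlrp9a and Nlrp9c transcripts were 88.2% identical, and the Nlrp4a and Nlrp4b transcripts 78.5%. The median over all pairs was 63.5%. Identity here and below counts aligned bases only and leaves gaps out, so its low end is high. Nlrp4b and Nlrp9a, with a longest common run of 12 bases, still had 61.3%. The values of Nlrp4e and Nlrp4c are therefore the least certain of the 8, because how the authors assigned reads that match several genes is not stated. Both transcripts hold the following 120 coding bases, the longest run they have in common, printed because a read lying wholly within it matches both genes.
Nlrp4c and Nlrp4e: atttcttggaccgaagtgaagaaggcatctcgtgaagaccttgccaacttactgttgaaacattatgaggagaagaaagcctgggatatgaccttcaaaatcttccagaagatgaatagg

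**Figure D1:**
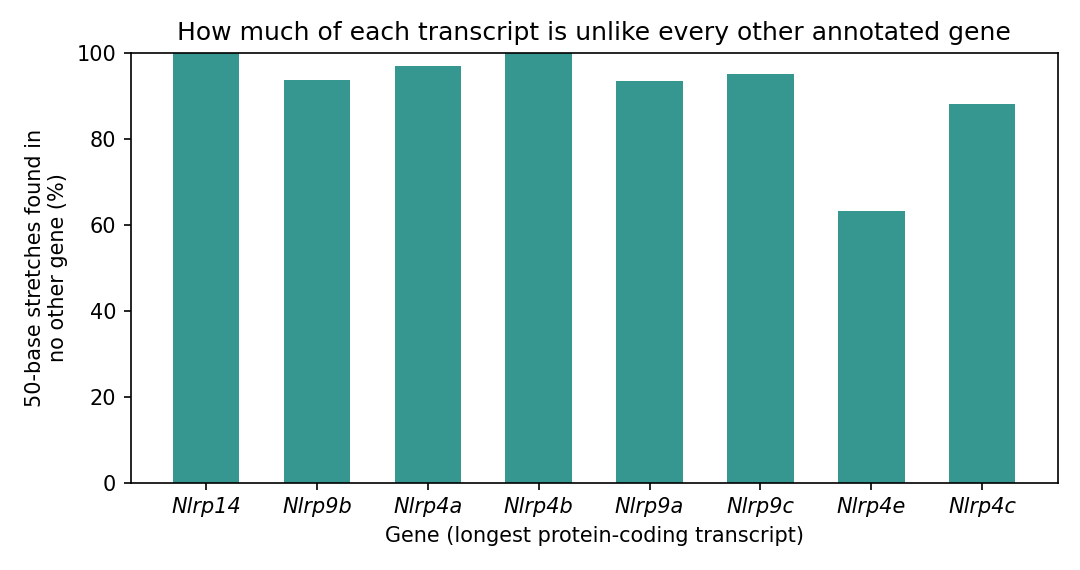
Bars give, for each of the 8 genes, the percentage of 50-base stretches of its longest protein-coding GENCODE M21 transcript found in no other annotated gene; the axis starts at 0. Nlrp14 and Nlrp4b stand at 100% and Nlrp4e is lowest at 63.1%.

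RefSeq promoter windows (GRCm38.p6, a later build than the mm9 of the authors' processing, from 250 bases before to 50 after each gene's start) were given for 7 of the 8 genes, in 9 windows; Nlrp14 was not matched. The windows of Nlrp9a and Nlrp9c were nearly the same sequence, with 96.4% identity over 253 aligned bases, 9 substitutions, and 34 AT-rich bases present only in Nlrp9a. They are printed because no other pair of members' windows was as alike. Nlrp9b is printed for contrast: its window had 64.3% identity with that of Nlrp9a, but a longest common run of only 9 bases. The values of Nlrp9a and Nlrp9c were not the nearest: over the 4 columns Nlrp9c was the 515th nearest of 14239 genes to Nlrp9a, and Nlrp9a the 463rd to Nlrp9c. This distance counts a steady difference in level as well as a difference in pattern. The ratio of Nlrp9a to Nlrp9c lay between 1.29 (WT cytoplasms) and 1.62 (null nuclei). In the Nlrp9a and Nlrp9c sequences, capitals mark bases without an identical partner in the other, the offset ends included. In Nlrp9b, capitals mark matches to the NOBOX element and to the TATA box, spelled out below, on either strand.
Nlrp9a chr7:26534773-26535072, plus strand: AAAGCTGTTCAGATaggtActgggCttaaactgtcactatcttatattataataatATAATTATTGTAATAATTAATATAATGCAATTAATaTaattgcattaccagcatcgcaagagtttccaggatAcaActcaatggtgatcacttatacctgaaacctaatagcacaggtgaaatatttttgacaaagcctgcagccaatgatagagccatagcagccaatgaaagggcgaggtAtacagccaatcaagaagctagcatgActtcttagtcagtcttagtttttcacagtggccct
Nlrp9c chr7:26403651-26403950, minus strand: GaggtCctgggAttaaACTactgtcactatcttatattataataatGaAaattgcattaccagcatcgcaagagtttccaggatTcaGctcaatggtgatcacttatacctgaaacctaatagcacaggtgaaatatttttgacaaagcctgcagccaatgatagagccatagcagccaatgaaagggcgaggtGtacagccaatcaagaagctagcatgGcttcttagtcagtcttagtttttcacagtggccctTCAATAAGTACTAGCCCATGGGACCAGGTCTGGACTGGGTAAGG
Nlrp9b chr7:20007773-20008072, plus strand: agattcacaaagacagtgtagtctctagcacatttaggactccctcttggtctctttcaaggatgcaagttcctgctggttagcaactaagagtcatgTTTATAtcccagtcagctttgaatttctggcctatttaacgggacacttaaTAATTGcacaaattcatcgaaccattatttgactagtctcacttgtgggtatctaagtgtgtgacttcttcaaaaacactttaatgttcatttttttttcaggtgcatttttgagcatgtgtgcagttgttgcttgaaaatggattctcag

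TAATTG, the element bound by the oocyte factor NOBOX, was found in windows of 2 of the 7 genes, Nlrp9a with 2 matches and Nlrp9b with 1. Both Nlrp9a matches included bases that have no identical partner in Nlrp9c, where no match was found. Of all 32851 promoter windows 8.0% held this element. The sequence of the TATA box, TATAAA, was matched in Nlrp9b alone, against 13.6% of all windows. That match was the reverse complement, TTTATA. Its distance from the gene's start was not analysed, so it is not shown to be a working TATA box. CANNTG, the E-box read by basic helix-loop-helix factors such as FIGLA, was found in all 7 genes and in 72.3% of all windows. Motifs were searched on both strands. In the Nlrp4 group, Nlrp4a and Nlrp4b have 2 windows each. The most alike windows of Nlrp4a and Nlrp4b were 80.4% identical, those of Nlrp4b and Nlrp4c 81.6%, and those of Nlrp4a and Nlrp4c 78.3%. The other Nlrp4a window had only 58.5% identity with Nlrp4c and at most 62.8% with Nlrp4b, and the Nlrp4e window had between 57.9% and 61.7% with those of the other 3 genes. Some of the genes stood next to another Nlrp gene in the RefSeq gene order. Nlrp9c, Nlrp4a and Nlrp9a followed one another with no other protein-coding gene between them, and Nlrp4e stood next to Nlrp5. Nlrp4b lay between the vomeronasal receptor genes Vmn1r70 and Vmn1r71, both listed at 0 in every column, and the nearest protein-coding neighbours of Nlrp4c, Nlrp9b and Nlrp14 were no Nlrp genes either.

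The deposited values are FPKM by the name of the table, that is, scaled to transcript length and library size. Column totals ran from 594034 to 6637345, and why is not stated, so whether the columns share a common scale is unknown. Values are therefore given as deposited. Differences are given on a second scale, called relative, for which every column was rescaled so that the typical gene has the same value in each (median-ratio scaling). A difference is taken as log2 of the rescaled value plus 1 and describes a gene against the median gene. The median over the 14240 genes kept by a filter on low values (at least 1 in at least 2 columns) was 0.91 for null minus WT in the nucleus as deposited and 0.05 on the relative scale. In the cytoplasm these medians were -0.79 and 0.04. In such pooled samples, less RNA per cell and fewer contributing cells cannot be told apart. All 8 members had a value above 1 in every column and so passed the filter. As a check of the labels, Skiv2l2, which encodes MTR4, had 13.3 and 3.54 in WT and null nuclei and 187 and 4.36 in WT and null cytoplasms. The oocyte markers fixed as a list, such as Gdf9 and Zp3, summed to between 2.67% and 4.47% of a column. The 18 granulosa cell markers summed to between 0.00658% and 0.0137%. The highest of them in WT cytoplasms were Esr2 (417) and Inha (253), and 2 of the 18 were under 1 there. Of the immune markers, Ptprc was listed at 0 in 3 columns and at 0.0648 in the WT cytoplasm, and Lyz2 and Cd14 at 0 in all 4. Cd68 had 17.1 and 7.22 in WT and null cytoplasms, Tyrobp 0 and 14.7, and Aif1 0.487 and 3.60. The 10 immune markers in the table summed to between 0.000244% and 0.000887% of a column, the highest in null cytoplasms.

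Nlrp14 dominated the group. Its value was 654 in WT nuclei, 1630.4 in null nuclei, 15949.6 in WT cytoplasms and 8599 in null cytoplasms. Among all genes it ranked 122nd and 124th in the nuclei, and 39th and 34th in the cytoplasms of WT and null, so its rank was nearly the same in both genotypes. The next members came well below. Nlrp9b had 115 in WT nuclei, 211 in null nuclei, 2371 in WT cytoplasms and 686 in null cytoplasms. Nlrp4a had 115, 149, 2252 and 701 in the same order of columns. Nlrp4b had 104, 137, 1995 and 686. These 3 genes lay close together in each column, except that Nlrp9b stood above the other 2 in null nuclei. Nlrp9a followed with 82.2, 95.3, 1555 and 348. Nlrp9c had 52.0, 58.9, 1209.95 and 234. Nlrp4e had 68.1, 43.6, 1058 and 223, and was the only member whose deposited value was lower in null than in WT nuclei. Nlrp4c was the lowest member in every column, with 4.53, 17.9, 113 and 83.0. The order from highest to lowest was Nlrp14, Nlrp9b, Nlrp4a, Nlrp4b, Nlrp9a, Nlrp9c, Nlrp4e and Nlrp4c in WT cytoplasms and in null nuclei. In WT nuclei Nlrp4e stood above Nlrp9c, and in null cytoplasms Nlrp4a stood above Nlrp9b. Without a spread between libraries, none of these neighbours can be called different in level. The highest member exceeded the lowest by 144-fold in WT nuclei, 91.1-fold in null nuclei, 141-fold in WT cytoplasms and 104-fold in null cytoplasms.

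**Figure D2:**
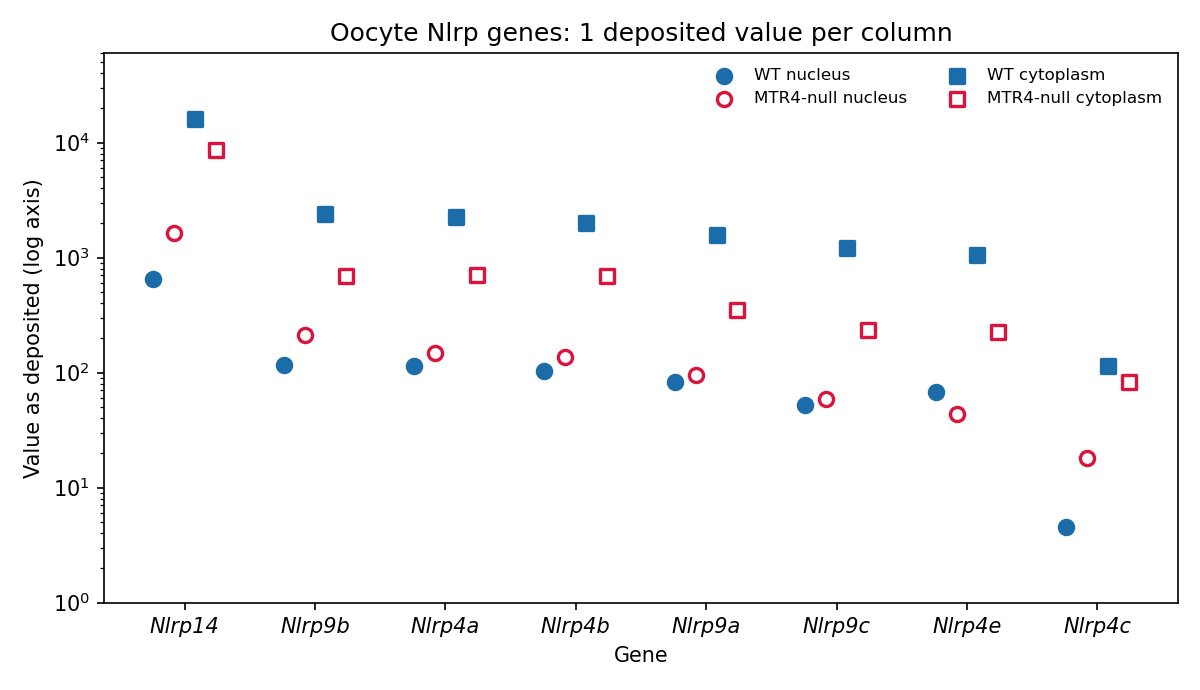
The deposited value of each of the 8 genes (log axis) in the 4 columns, with circles for nuclei, squares for cytoplasms, filled for WT and open for MTR4-null; each point is 1 value with no replicate. Nlrp14 is highest and Nlrp4c lowest in every column, and Nlrp4e is the only gene whose null nucleus lies below its WT nucleus.

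Shares within a column are not altered when the column is divided by a single number, as in every scaling tried except quantile normalization. Nlrp14 made up 54.7% of the summed value of the 8 genes in WT nuclei and 69.6% in null nuclei. In cytoplasms its share was 60.2% in WT and 74.4% in null. Its share was thus higher in null in both compartments. The Nlrp4e share was lower in null, at 5.70% in WT and 1.86% in null nuclei and at 3.99% and 1.93% in cytoplasms. The Nlrp9a share was 6.88% and 4.06% in WT and null nuclei and 5.87% and 3.01% in cytoplasms, and the Nlrp9c share was 4.35% and 2.51%, then 4.57% and 2.02%. The Nlrp9b share lay closer between WT and null in nuclei, at 9.66% and 8.99%, than in cytoplasms, at 8.95% and 5.94%. Nlrp4c, the lowest member, had 0.379% and 0.764% in WT and null nuclei and 0.427% and 0.718% in cytoplasms. Measured against the whole column, the 7 genes other than Nlrp14 summed to 0.0911% in WT nuclei and 0.0511% in null nuclei. In cytoplasms they summed to 0.159% in WT and 0.0985% in null. Nlrp14 alone made up 0.110% and 0.117% of the nuclear columns and 0.240% and 0.286% of the cytoplasmic ones.

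**Figure D3:**
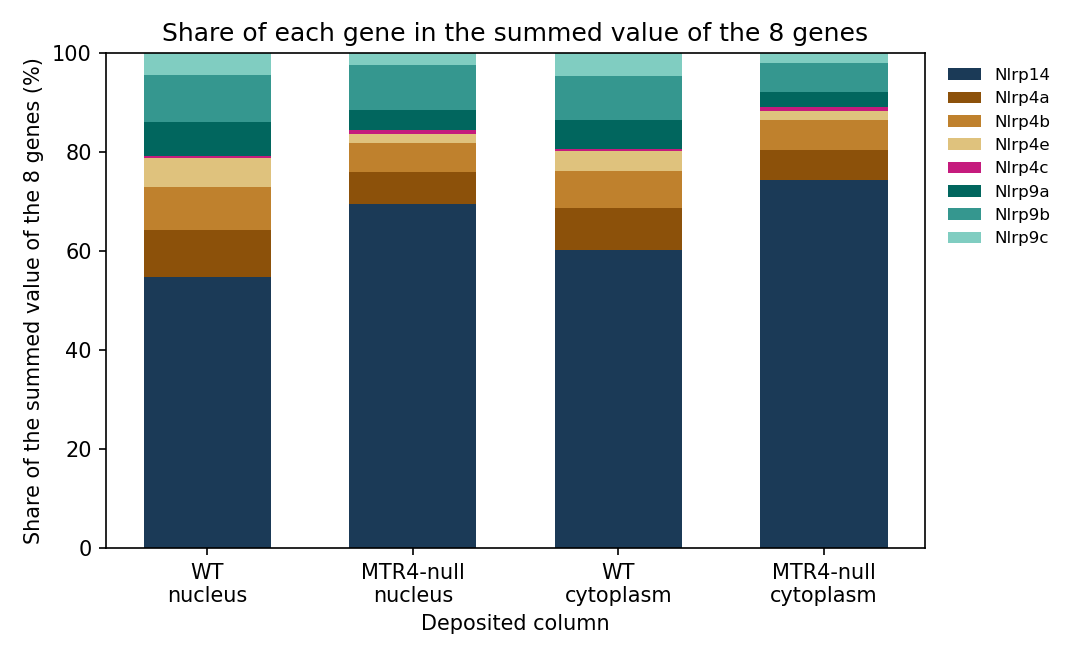
Stacked bars give the share of each gene in the summed deposited value of the 8 genes (percent, axis from 0 to 100) in each of the 4 columns. The Nlrp14 share is 54.7% and 69.6% in WT and null nuclei and 60.2% and 74.4% in WT and null cytoplasms.

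Ratios between members are likewise left as they are when a column is divided by a single number, but not under quantile normalization. The ratio of Nlrp14 to Nlrp4e was 9.61 in WT nuclei and 37.4 in null nuclei, and 15.1 in WT and 38.5 in null cytoplasms. The ratio of Nlrp14 to Nlrp9c was 12.6 and 27.7 in nuclei and 13.2 and 36.8 in cytoplasms. The ratio of Nlrp4e to Nlrp4c, whose transcripts are the most alike, was 15.0 in WT nuclei and 2.43 in null nuclei, and 9.34 and 2.69 in cytoplasms. In contrast, Nlrp4a and Nlrp4b, with no 50-base stretch in common, had nearly the same ratio in all 4 columns: 1.11 and 1.09 in nuclei, 1.13 and 1.02 in cytoplasms. The ratio of Nlrp9a to Nlrp9c was also close between genotypes, at 1.58 and 1.62 in nuclei and 1.29 and 1.49 in cytoplasms. The ratio of Nlrp9b to Nlrp9c was larger in null, at 2.22 and 3.58 in nuclei and 1.96 and 2.93 in cytoplasms.

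The first comparison asked how null nuclei differed from WT nuclei. On the relative scale 6 of the 8 genes were lower in null, with a median of -0.71 over the 8 against 0.05 over all kept genes. Of the 8, 1 gene was at least 2-fold lower, Nlrp4e (-1.73, 3.33-fold), and none was at least 2-fold higher. Among all 14240 genes 16.4% were at least 2-fold lower and 25.6% at least 2-fold higher, so 1 in 8 members lower is near the background. Nlrp9c and Nlrp9a had -0.92 and -0.89, Nlrp4a and Nlrp4b had -0.72 and -0.70, and Nlrp9b had -0.24. Nlrp14 had 0.21 and Nlrp4c 0.84. As deposited the direction of Nlrp4a, Nlrp4b, Nlrp9a, Nlrp9b and Nlrp9c turned, to values from 0.18 to 0.86. As deposited Nlrp4e was still lower, at -0.63, and Nlrp4c (1.77) and Nlrp14 (1.32) were at least 2-fold higher, where 46.3% of all genes were. None was at least 2-fold lower as deposited, against 3.69% of all genes. Nlrp4e was lower, and Nlrp4c higher, under every scaling tried. Nlrp9b turned to 0.20 when the divisors came from genes of at least 10 in every column, and Nlrp14 to -0.09 under quantile normalization.

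In the cytoplasm 7 of the 8 genes were lower in null on the relative scale, Nlrp14 by almost nothing. The median was -0.85 over the 8 against 0.04 over all kept genes. At least 2-fold lower were 3 genes, Nlrp9c (-1.47), Nlrp4e (-1.35) and Nlrp9a (-1.27), against 19.0% of all genes. At least 2-fold higher was none, against 23.9% of all genes. Nlrp9b had -0.90, Nlrp4a -0.79, Nlrp4b -0.65 and Nlrp14 -0.0030, while Nlrp4c had 0.43. Nlrp4a, Nlrp4b, Nlrp4e, Nlrp9a, Nlrp9b and Nlrp9c were lower under every scaling tried. Their sizes varied: with divisors from genes of at least 10 in every column they ran from -1.02 for Nlrp9c to -0.20 for Nlrp4b. As deposited all 8 were lower, and Nlrp4c turned to -0.44 and Nlrp14 stood at -0.89. As deposited 6 were at least 2-fold lower, where 43.7% of all genes were, and none was higher, against 14.9% of all genes. Nlrp14 turned to 0.45 with divisors from genes of at least 10 in every column, to 0.16 under quantile normalization and to 0.07 with upper-quartile scaling.

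**Figure D4:**
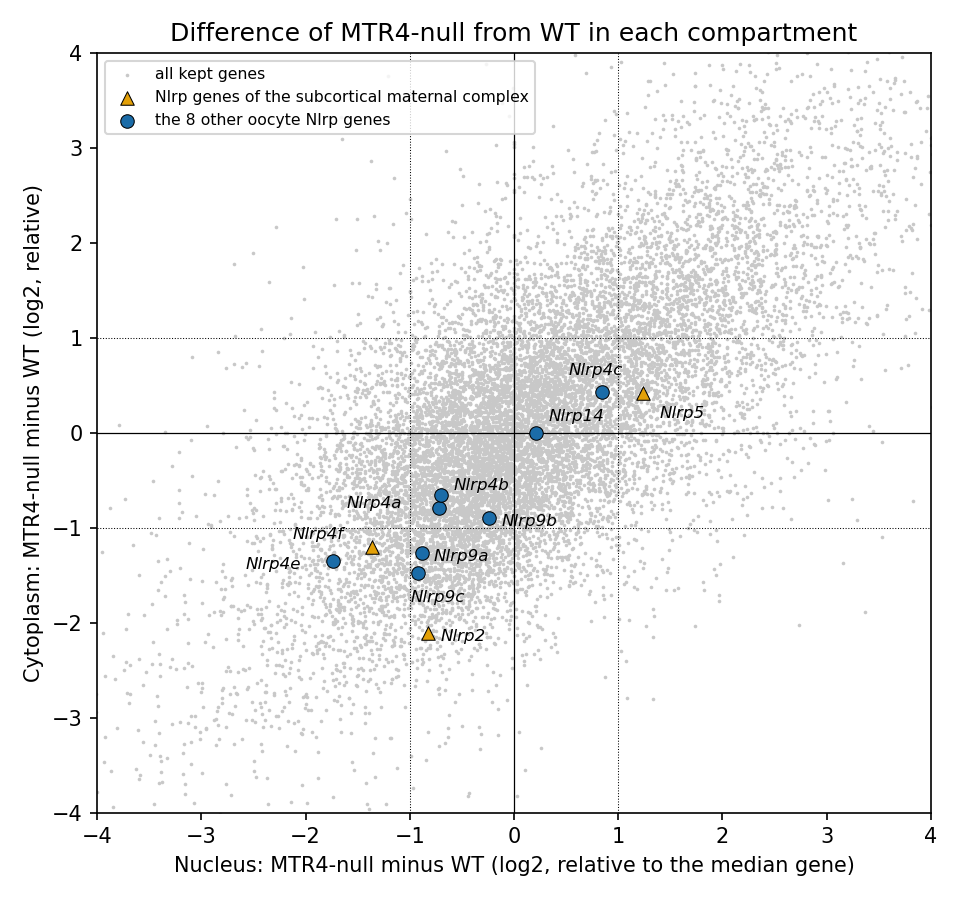
Each point is a gene, placed by its log2 difference between MTR4-null and WT relative to the median gene in the nucleus (horizontal) and the cytoplasm (vertical), with dotted lines at 2-fold; grey points are kept genes, 495 of which lie outside the axes. Nlrp4e (-1.73 and -1.35) and Nlrp9c (-0.92 and -1.47) lie at lower left, Nlrp14 (0.21 and -0.0030) near the origin, and Nlrp4c (0.84 and 0.43) with Nlrp5 (1.23 and 0.42) at upper right. As deposited Nlrp9c turns in the nucleus and Nlrp4c (-0.44) and Nlrp5 (-0.47) in the cytoplasm, and Nlrp14 turns in both under the scalings named in the text.

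Highly expressed genes were also described by themselves, ranked by their mean level over the 4 columns, which weights WT and null alike; this group was chosen after the values were seen. The top 10% of kept genes by this mean, 1424 genes, held 5 of the 8 members: Nlrp4a, Nlrp4b, Nlrp9a, Nlrp9b and Nlrp14. In the nucleus the 1424 genes had a relative median of -0.41 for null minus WT, with quartiles at -0.87 and 0.09, and the 5 members a median of -0.70. In the cytoplasm the median was -0.54, with quartiles at -1.05 and 0.05, against -0.79 for the 5 members. Of the 1424 genes 19.5% were at least 2-fold lower and 9.27% higher in null nuclei. In null cytoplasms 27.2% were lower and 10.5% higher. Nlrp4a, Nlrp4b and Nlrp9b lay between the quartiles in both compartments. Nlrp9a lay below the lower quartile in both, and Nlrp14 above the upper quartile in the nucleus and between the quartiles in the cytoplasm.

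Within WT oocytes all 8 genes had lower values in the nucleus than in the cytoplasm, as deposited from -3.94 for Nlrp4e to -4.61 for Nlrp14 on the log2 scale, where 91.2% of all genes were at least 2-fold lower. That size rests on the unknown scale of the columns. Relative to the median gene they were also all lower, with a median of -0.73 against -0.13 over all kept genes. Nlrp14 (-1.01) and Nlrp4c (-1.0002) lay at the 2-fold limit, against 8.05% of all genes at least 2-fold lower and 9.36% higher. Nlrp9c had -0.94, Nlrp9b -0.76, Nlrp4a -0.69, Nlrp4b -0.66, Nlrp9a -0.64 and Nlrp4e -0.36. In null oocytes the 8 genes were again lower in the nucleus, with a relative median of -0.61 against -0.04 over all kept genes. None reached 2-fold, against 9.30% of all genes lower and 12.1% higher. As deposited all 8 did, as did 71.9% of all genes. Nlrp14 had -0.79, Nlrp4e -0.74 and Nlrp4b -0.71, and the 3 Nlrp9 genes were nearest to 0: Nlrp9c -0.38, Nlrp9a -0.26 and Nlrp9b -0.10. Nlrp9b turned to 0.03 with divisors from genes of at least 10 in every column. Subtracting the WT from the null value of this compartment difference gave 0.66 for Nlrp9b, 0.56 for Nlrp9c and 0.38 for Nlrp9a. It gave 0.41 for Nlrp4c, 0.22 for Nlrp14 and 0.07 for Nlrp4a, and was below 0 for Nlrp4b (-0.05) and Nlrp4e (-0.38). No member reached 2-fold in this difference, against 17.1% of all genes higher and 15.1% lower, though all 8 did as deposited (from 1.61 to 2.65), where 71.7% of all genes were at least 2-fold higher. Under quantile normalization the value turned to -0.25 for Nlrp14 and -0.02 for Nlrp4a.

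The Nlrp genes tied to the subcortical maternal complex also differed from each other in direction. Nlrp5 had 188 in WT nuclei, 953 in null nuclei, 3995 in WT cytoplasms and 2883 in null cytoplasms, with relative differences of 1.23 (nuclei) and 0.42 (cytoplasms). Its neighbour in the genome, Nlrp4e, was lower in null in both compartments. Nlrp4f had 334, 278, 5938 and 1388 (relative -1.37 and -1.21), and Nlrp2 had 64.0, 77.2, 1495 and 187 (relative -0.83 and -2.10). As deposited Nlrp2 turned to 0.27 in the nucleus and Nlrp5 to -0.47 in the cytoplasm. Nlrp4g, a close paralog, was listed at 0 in all 4 columns. Nlrp14 exceeded Nlrp5 by 3.47-fold and 1.71-fold in WT and null nuclei, and by 3.99-fold and 2.98-fold in WT and null cytoplasms.

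Most NLR genes of innate immunity had low values, but Naip1, Naip2, Naip5 and Nlrp1a overlapped the lower members. Of 20 NLR genes of innate immunity in the table, 12 were under 1 in null nuclei, 14 in WT nuclei, 10 in WT cytoplasms and 12 in null cytoplasms. The list summed to 224 in the WT cytoplasm, where Nlrp14 alone had 15949.6. Nlrp3, the best known inflammasome sensor, had 0.0687 and 2.63 in WT and null nuclei and 0.313 and 0 in the cytoplasms. The 8 that passed the filter included 5 at least 2-fold higher and 2 lower in null nuclei, and 4 higher and 2 lower in null cytoplasms (relative). Of all genes 25.6% were higher and 16.4% lower in nuclei, and 23.9% higher and 19.0% lower in cytoplasms. As deposited the nucleus had 4 higher and 0 lower (46.3% and 3.69% of all genes), and the cytoplasm 3 higher and 2 lower (14.9% and 43.7%). Of the 5 higher in null nuclei, Nlrp12 passed the filter only through null nuclei (5.80) and WT cytoplasms (1.33). The filter itself thus favoured counting Nlrp12 as higher. Nlrp12 and Nwd1 were near the floor in WT nuclei, at 0.0853 and 0.0956, and Nwd1 had 1.18 in null nuclei. The immune markers summed to 0.000284% and 0.000244% of the column in WT and null nuclei and to 0.000284% and 0.000887% in WT and null cytoplasms, and their part in these counts was not tested. Naip1 was the highest of the list in WT cytoplasms, at 136 against 8.07 in null, and had 5.82 and 2.80 in the nuclei. Naip2 had 6.59 and 105 in WT and null nuclei and 1.93 and 50.9 in the cytoplasms, and Naip5 had 6.38 and 93.7 and then 4.15 and 53.5. In null nuclei Naip2 and Naip5 thus exceeded Nlrp9c, Nlrp4e and Nlrp4c, and Naip2 also Nlrp9a, and Naip1 exceeded Nlrp4c in both WT columns. The Naip genes are close copies of each other and may share reads, which makes their values uncertain. Nlrp12 had 0.0853 and 5.80 in the nuclei, and Nlrc4 had 26.2 and 2.80 in WT and null cytoplasms. Nlrp1a had 2.17 and 26.9 in WT and null nuclei (relative 2.39), and exceeded Nlrp4c in null nuclei. In WT and null cytoplasms Nlrp1a had 17.9 and 67.4 (relative 2.59). Of 10 inflammasome partners and products, 4 passed the filter. Pycard, the adaptor that joins NLRP sensors to caspase-1, had 0 in WT and 3.76 in null cytoplasms, and 0.252 and 0.947 in the nuclei. Casp1, which encodes caspase-1, went the other way, with 0.690 and 0 in WT and null nuclei and 1.57 and 0 in the cytoplasms. Casp4 had 1.19 and 0 in WT and null nuclei and 0 in both cytoplasms. Pycard, Casp1 and Casp4 did not pass the filter, and Il1b and Mefv were listed at 0 throughout. Dhx9, the partner of NLRP9B, had 10.8 and 18.4 in WT and null cytoplasms (relative 1.40), and Il18 had 11.7 and 0.731 (relative -1.67). In WT and null nuclei Il18 went the other way, with 0.398 and 1.81 (relative 0.73).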

How the data were processed

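Polyadenylated RNA of oocyte nuclei and cytoplasms was measured in 13 libraries, which the authors deposited as 1 table of 4 columns. Its values are FPKM by the name of the table. Here they count as a score, since the totals of the deposited columns lie more than 10-fold apart and how they were averaged and scaled is not stated. Per the submitters' processing notes the tools were Cufflinks 2.2.1 and TopHat2 2.1.1 and the genome build mm9, with no settings. Read depth is unknown, and read counts were not analysed here.

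With 1 column per genotype and compartment no test was possible, so the planned limma fit was not made. Each column's divisor was the median, over genes above 0 in all 4, of its ratio to the gene's geometric mean: 0.281 (WT nucleus), 0.604 (null nucleus), 3.41 (WT cytoplasm) and 1.84 (null cytoplasm). Genes of at least 1 in at least 2 columns were kept, 1 was added, and log2 differences were called at 2-fold. The calculation was tested on simulated data with known factors. Only a small part of the genes was changed there, in a single column. That check therefore could not show how the scaling behaves when many genes differ. The members and lists were chosen with earlier results of these data known.

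All 8 members were named, and the 2 kept genes nearest to each by Euclidean distance over the 4 columns. Of each list of up to 5 genes all that were found in the table were named. Nlrp4d, listed with Nlrp2, Nlrp4f, Nlrp5 and Nlrp4g, was not found. Of longer lists the highest in WT cytoplasms was named, and up to 2 genes in each direction that were at least 2-fold apart on the relative scale and kept that direction as deposited. Nlrp1a, Nlrp3, Nwd1, Pycard, Casp1, Casp4, Il1b, Mefv and the marker genes were named after their values were seen. Transcripts came from GENCODE M21 and promoters from RefSeq (GRCm38.p6), another build than mm9. They were matched by symbol and aligned globally with Biopython 1.88. Protein identity, also planned, was not analysed here. Python 3.11.15, numpy 2.4.6 and pandas 2.3.3 were used.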

Additional observations from a re-analysis of the deposited data

How the results depend on the processing

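No paired analysis was possible because the table holds no column for a single library, and for the same reason no replicate could be left out in turn. The count of members at least 2-fold apart in either direction changed with the scale. Between null and WT nuclei it was 1, against 2 as deposited and 2 with divisors from genes of at least 10 in every column. Between null and WT cytoplasms it was 3, against 6 as deposited and 1 with divisors from genes of at least 10 in every column. Between WT nucleus and cytoplasm it was 2, against 8 as deposited, 1 under quantile normalization, 0 with divisors from genes of at least 10 in every column and 0 with upper-quartile scaling. Between null nucleus and cytoplasm it was 0, against 8 as deposited and 1 under quantile normalization. For the nuclear share it was 0, against 8 as deposited. The cause was not tested beyond the scale itself. The other 24 of 35 counts stayed within 1.5-fold, among them all under pseudocount 0.1, no filter, and a filter of at least 1 in every column. A change of filter could not alter any member's value, since all 8 passed each filter and the divisors did not depend on it. The counts above and the values below under these filters were therefore fixed in advance. Of 280 values of single members under an alternative, 228 kept their direction and their side of 2-fold, 27 moved past 2-fold, 9 fell short of it, and 16, all under 2-fold on the relative scale, changed direction. Of these 16, 2 were past 2-fold under the alternative: the nuclear share of Nlrp4b (1.94) and Nlrp4e (1.61) as deposited.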

Other observations

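Over the 4 columns, the genes nearest to Nlrp14 on the relative scale were Npm2, a nucleoplasmin of the egg that remodels sperm chromatin, and Skp1a, a subunit of SCF ubiquitin ligases. Npm2 had 907 in WT nuclei, 2231 in null nuclei, 19499 in WT cytoplasms and 6157 in null cytoplasms. Their distances of 0.86 and 0.87 (log2 units) were larger than those of any other member to its nearest genes, which ran from 0.11 to 0.29. This distance counts level as well as pattern, and Nlrp14 ranked between 34th and 124th in the columns, where few genes have a like level. Nlrp4a and Nlrp4b were near each other: Nlrp4b was the second nearest of 14239 genes to Nlrp4a, at 0.26, behind Asf1b, a histone chaperone gene, at 0.11, and Asf1b and Rnf34 were nearest to Nlrp4b. The nearest to Nlrp9a were Baiap2l1 and Bub3, a spindle checkpoint gene, to Nlrp9b Acd and Med28, and to Nlrp9c Krtcap2 and Tax1bp3. The nearest to Nlrp4c were Nob1 and Tgfa, and to Nlrp4e Brp44l and Slc25a17. With 4 values per gene such nearness is a description only.

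Of 7 oocyte transcription factor genes, all passed the filter, and their directions differed. Nobox, whose product acts on many oocyte genes, had 6401 in WT and 646 in null cytoplasms (relative -2.42), and 216 and 254 in the nuclei (relative -0.87, 0.23 as deposited). Figla had 877 and 756 in cytoplasms, and 35.9 and 202 in nuclei (relative 1.38). Sohlh1 had 8.56 and 39.3 in cytoplasms (relative 2.67) and 0.406 and 12.9 in nuclei (relative 3.19), and Sohlh2 had 62.6 and 10.8 (relative -1.49) and 1.97 and 0.790 (relative -1.79). In null nuclei 3 were at least 2-fold higher and 1 lower, and in null cytoplasms 1 was higher and 3 were lower (relative), where 25.6% and 16.4% of all genes were in nuclei and 23.9% and 19.0% in cytoplasms. As deposited 4 were higher and 0 lower in nuclei (46.3% and 3.69% of all genes), and 1 higher and 3 lower in cytoplasms (14.9% and 43.7%). Vmn1r65, a vomeronasal receptor gene next to Nlrp4c in the RefSeq gene order, had 6.45 in WT and 150 in null nuclei, and 126 and 152 in the cytoplasms; it was singled out after its values were seen.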
